A study of Drosophila melanogaster with 4 samples.

Results

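The Turandot genes of Drosophila melanogaster encode small secreted peptides, and all 8 of them (TotA, TotB, TotC, TotE, TotF, TotM, TotX and TotZ), of 16489 gene symbols in the count tables, were followed here in adult heads with and without activated Yorkie in the eye, which the series treats as a tumor model. Members were taken by symbol, and the family was chosen with earlier results of these data known. As written 7 symbols matched, and TotE stood in the tables under its older name Victoria. The heads expressed yki S168A, a hyperactive version of Yorkie, the co-activator that the Hippo pathway restrains, under the driver GMR-Gal4 (n = 2 libraries), or carried GMR-Gal4 alone (control, n = 2 libraries). The driver, active mainly in the developing eye, was present in both groups. Effects of the transgene and of the fly stock used cannot be told apart. Each library pooled 30 heads, and the sources used here give neither age nor sex of the flies. Nothing says that libraries of a group came from separate crosses, so p-values speak to the spread between these libraries, which may be technical.

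Turandot peptides are known as humoral stress factors, released into the hemolymph largely by the fat body, the insect counterpart of liver and adipose tissue. In flies their transcription after infection, heat or injury has been tied to the JAK/STAT pathway, to the Imd pathway and its NF-kappaB factor Relish, and to the kinase Mekk1. The proteins have been reported to bind phosphatidylserine on host membranes and to shield host cells from the fly's own antimicrobial peptides.

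In yki S168A heads TotM rose 4.25-fold and TotA fell 2.06-fold relative to control heads, so members of this small family changed in opposite directions. TotC had a lower mean and TotX a higher mean than in control heads, and neither passed the test. TotB, TotE, TotF and TotZ were close to the detection limit in all libraries and were not tested. TotM had lower counts than TotA and TotC in control heads and the highest counts of the family in yki S168A heads.

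Libraries summed to 17311383 and 18108814 counts for yki S168A heads and 16817968 and 15738860 for control heads. Levels are given as CPM, read counts scaled to a common library size, with library totals corrected by TMM for differences in composition, and 3 counts correspond to 0.170 to 0.184 CPM. Genes were tested with edgeR's quasi-likelihood test and called at a Benjamini-Hochberg adjusted p below 0.05 over all 10896 genes tested. Of these 27.6% were called, 15.1% higher and 12.5% lower in yki S168A heads, and for 63.3% the CPM values of the groups did not overlap. Of the 4 members tested 1 was higher and 1 lower, too few genes to set a share of the family against that background. The labelled tissue matched its markers: photoreceptor, neuron, glia and muscle genes were all detected. Of 12 midgut and 12 male reproductive tract markers 0 passed the filter on low counts, and the summed midgut level was 0.170 to 0.920 CPM across the libraries. Of 10 ovary and eggshell markers 3 passed it, and that list summed to 2.85 to 7.91 CPM.

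TotM (FBgn0031701) lies on chromosome 2L, 5329857 to 5330464, plus strand, build dm6, and has 1 intron. The libraries of yki S168A heads held it at 298.04 and 297.8 CPM, and those of control heads at 77.1 and 63.1 CPM. The yki S168A libraries were nearly equal, and both lay far above either control library. Means were 298 ± 0.201 CPM in yki S168A and 70.1 ± 9.94 CPM in control heads (SD, n = 2 each). The log2 fold change was 2.09 ± 0.15 (SE, 95% interval 1.75 to 2.42, adjusted p = 2.53e-06). Of all tested genes, called or not, 335 had a larger positive log2 fold change. Per kilobase of exonic sequence TotM ranked 224th and 226th among 16271 symbols with a known length in the yki S168A libraries, and 547th and 633rd in the control libraries.

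TotA (FBgn0028396), the founding member of the family, lies on chromosome 3R, 20871036 to 20871700, plus strand. Its level was 66.7 and 62.6 CPM in yki S168A heads and 156 and 109 CPM in control heads. The yki S168A libraries agree closely, while control replicate 1 exceeded control replicate 2 by 1.43-fold, and the groups did not overlap. TotA averaged 64.7 ± 2.92 CPM in yki S168A heads and 133 ± 33.3 CPM in control heads (SD, n = 2 each), and its log2 fold change was −1.04 ± 0.18 (SE, 95% interval −1.44 to −0.64, adjusted p = 0.00142). Among tested genes, called or not, 985 had a more negative log2 fold change. Its rank per kilobase was 726th and 735th in the yki S168A libraries, and 339th and 426th in the control libraries.

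TotC (FBgn0044812) lies next to TotA on chromosome 3R, 20872988 to 20873580, plus strand. Its levels were 78.5 and 80.8 CPM in the yki S168A libraries and 142 and 92.4 CPM in the control libraries. Both control libraries were higher, but control replicate 2 lay close to the yki S168A values. The means were 79.7 ± 1.63 CPM in yki S168A and 117 ± 35.3 CPM in control heads (SD, n = 2 each), with a log2 fold change of −0.56 ± 0.19 (SE, 95% interval −0.98 to −0.14) that missed the threshold by a narrow margin (adjusted p = 0.0503). TotC was called lower under 7 of 14 other settings and not under the other 7, with adjusted p between 0.00317 and 0.744. Without control replicate 1 its log2 fold change was −0.22 (adjusted p = 0.617), and without control replicate 2 it was −0.84 (adjusted p = 0.0122).

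TotX (FBgn0044810) lies on chromosome 3R, 20904917 to 20905518, minus strand, in an intron of the glutamate receptor gene Grik, which is on the plus strand. It has a single exon. Levels of TotX were 16.4 and 11.7 CPM in yki S168A heads, against 10.9 and 8.90 CPM in control heads. The lower yki S168A library was just above the higher control library. Means of 14.1 ± 3.28 CPM in yki S168A and 9.90 ± 1.42 CPM in control heads (SD, n = 2 each) gave a log2 fold change of 0.50 ± 0.28 (SE, 95% interval −0.11 to 1.11, adjusted p = 0.215). The interval takes in both no change and a rise as large as 1.11 on the log2 scale.

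**Figure D1:**
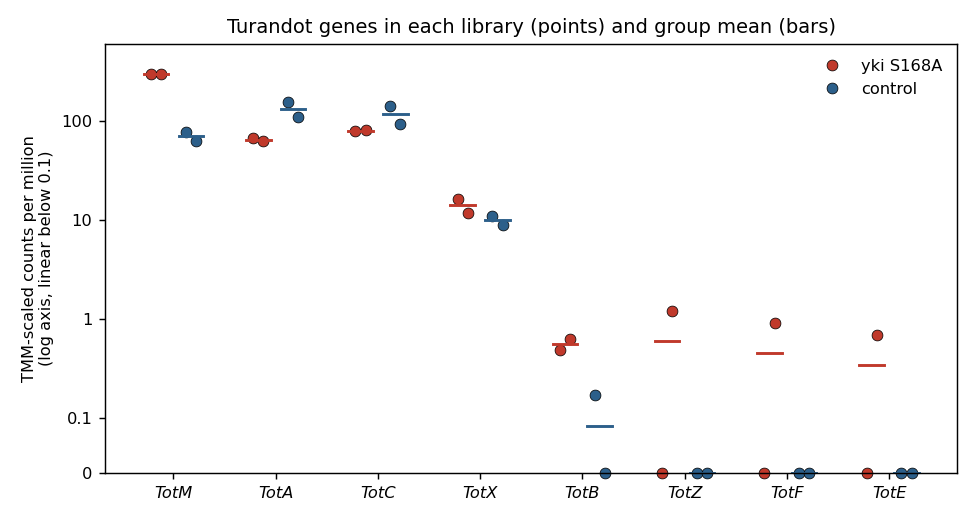
TMM-scaled CPM of the 8 Turandot genes (log axis, linear below 0.1), with yki S168A libraries in red on the left of each pair and control libraries in blue; points are libraries and bars group means (n = 2 each). TotM sits at 298 CPM in both yki S168A libraries, above both control libraries, TotA lies below its control libraries, and TotZ, TotF and TotE have counts in 1 library.

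The remaining members were nearly silent. TotB (FBgn0038838, chromosome 3R, 20873938 to 20874522) had 8 and 11 counts in the yki S168A libraries and 3 and 0 counts in the control libraries. TotZ (FBgn0044809, chromosome 3R, 20877736 to 20878363) had 0 and 21 counts in the yki S168A libraries and 0 in both control libraries. TotF (FBgn0044811, chromosome 2L, 19911815 to 19912377) had 0 and 16 counts, and TotE (FBgn0053117, chromosome 2L, 19912938 to 19913516) 0 and 12 counts, in the yki S168A libraries, again with 0 in both control libraries. All 3 genes that were silent elsewhere had their counts in yki S168A replicate 2, at 1.19, 0.907 and 0.681 CPM for TotZ, TotF and TotE, whereas 0 counts in replicate 1 allow up to 0.182 CPM. With these 3 included, 22 symbols had at least 12 counts in yki S168A replicate 2 and 0 in the other 3 libraries. The libraries taken one by one had 18 to 31 such symbols. This tally does not bear on 3 members of 1 family having counts in the same library, which was not tested. With no filter on low counts, edgeR called none of the 4 (TotB adjusted p = 0.292, TotZ 0.224, TotF 0.266, TotE 0.315; 0 of 4 at an unadjusted p below 0.05). TotZ passed when yki S168A replicate 1 was left out (adjusted p = 0.0458), a value that rests on 1 yki S168A library. Floors and intervals on counts describe reads and not molecules, since the labels name no molecular identifiers. They leave out the spread between libraries.

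Shares of the family's own counts do not depend on how libraries are scaled. TotM made up 64.8% (Wilson 95% interval 63.7 to 65.8) and 65.2% (64.2 to 66.3) of Turandot counts in the yki S168A libraries, and 19.9% (19.0 to 20.9) and 23.0% (21.8 to 24.3) in the control libraries. TotA made up 14.5% and 13.7% in the yki S168A libraries and 40.4% and 39.9% in the control libraries. TotC made up 17.1% and 17.7% in the yki S168A libraries and 36.8% and 33.8% in the control libraries. TotX kept a small share, 3.56% and 2.57% in the yki S168A libraries and 2.82% and 3.25% in the control libraries, and these ranges overlap. The widest interval of any member's share was that of TotA in control replicate 2, 38.5% to 41.4%. These intervals describe reads within a library and leave out the spread between libraries. Those of TotM in the control libraries did not overlap.

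**Figure D2:**
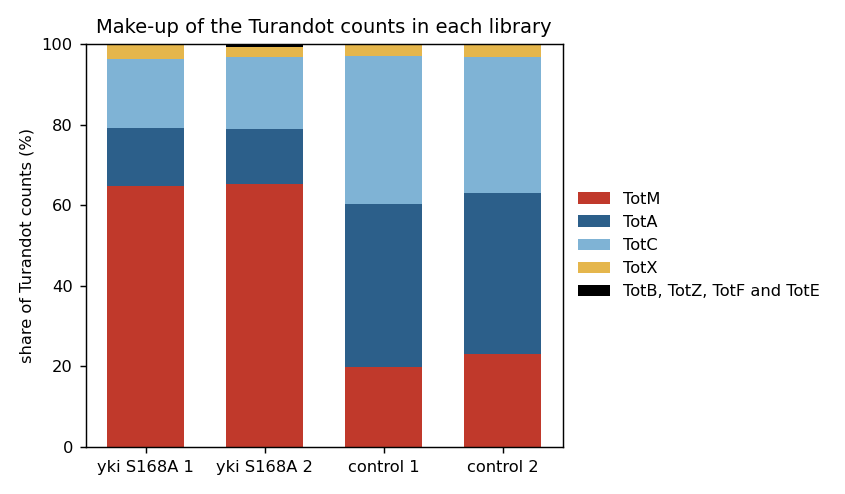
Share of all Turandot counts (percent) taken by each member in each of the 4 libraries, yki S168A libraries on the left. TotM fills about the same part of both yki S168A bars (64.8% and 65.2%), against 19.9% and 23.0% of the control bars, where TotA and TotC fill most of the rest.

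Within a library, TotM counts stood to TotA counts at ratios of 4.47 and 4.76 in yki S168A heads and 0.493 and 0.577 in control heads, an 8.64-fold difference in the ratio. Corrected for exonic length, the level of TotM was 4.68 and 4.99 times that of TotA in yki S168A heads and 0.517 and 0.605 times in control heads, so the order of these members per length was opposite in the groups. TotA and TotC moved more nearly together, with TotA to TotC ratios of 0.850 and 0.775 in yki S168A and 1.10 and 1.18 in control libraries. The ratio of TotX to TotA was 0.245 and 0.188 in yki S168A and 0.0697 and 0.0814 in control libraries. The groups did not overlap in CPM for 63.3% of all tested genes. Nor did they overlap for any of the 5 ratios examined, which share genes and are not separate results. A two-sided exact permutation test over libraries gave p = 0.333 for each, which is the smallest value that 2 libraries against 2 allow, and adjustment over the 5 cannot lower it. Summed over all 8 members, the family stood at 460 and 456 CPM in yki S168A heads and 387 and 274 CPM in control heads.

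The control libraries differed from each other in the same direction for all 4 expressed members. Control replicate 1 exceeded control replicate 2 by 1.54-fold for TotC, 1.43-fold for TotA, 1.23-fold for TotX and 1.22-fold for TotM. A gap at least as large was found between the control libraries for 3.83% of the 6683 tested genes with a mean of at least 10 CPM in the case of TotC, and for 6.90% in the case of TotA. For TotM and TotX the shares were 24.1% and 23.7%, so gaps of their size were common. In the yki S168A libraries TotM, TotA and TotC differed by no more than 1.07-fold, and TotX by 1.40-fold. TotM and TotA were called under all 14 other settings, at log2 fold changes of 1.93 to 2.24 for TotM and −1.28 to −0.76 for TotA.

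**Figure D3:**
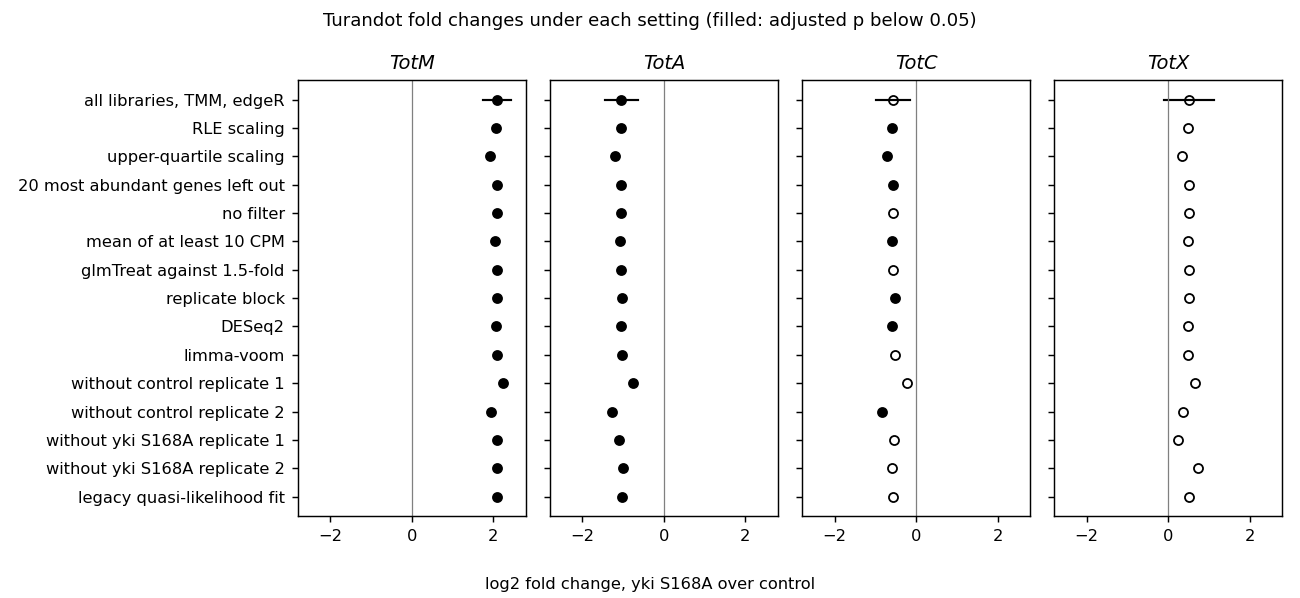
Log2 fold change (yki S168A over control) of the 4 tested Turandot genes with all libraries (top, line: 95% interval) and under 14 other settings; filled points passed an adjusted p below 0.05. TotM and TotA keep filled points on opposite sides of 0 throughout, TotC is filled under 7 other settings, and every TotX point is open.

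The genes fall at 4 places in the genome. TotA, TotC, TotB and TotZ lie within 7.33 kb of each other on 3R, TotX lies 26.6 kb beyond TotZ, TotF and TotE lie in an intron of the gene sick on 2L, on the opposite strand, and TotM stands alone on 2L. None of the 8 shares exonic bases with another annotated gene. How reads matching more than 1 member were counted is not given in the sources used here, so exchange of reads between similar members cannot be assessed.

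TotM rose among neighbors that fell, while 12.5% of all tested genes were called lower and 15.1% higher. All 4 nearest genes with counts, a pair on each side, were lower in yki S168A heads: CG14022 at a log2 fold change of −1.15 (adjusted p = 0.00109), fusl at −1.01 (adjusted p = 0.00366), Acsf2 (listed as CG12512) at −1.21 (adjusted p = 0.00245) and cype, a cytochrome c oxidase subunit gene, at −0.44 (adjusted p = 0.045). The gene fusl, on the opposite strand, ends 6 bases from TotM and stood at 15.7 and 13.7 CPM in yki S168A and 30.8 and 28.2 CPM in control libraries. The cype call did not hold without control replicate 1 (adjusted p = 0.42) or control replicate 2 (adjusted p = 0.169). Near the other 3 places, 1 of 8 tested neighbors was called lower, against 12.5% of all tested genes. Nothing is read from this count. The gene called was the noncoding CR43828 near TotE (log2 fold change −2.29, adjusted p = 0.0299), a call lost without any one of the 4 libraries. Grik, which contains TotX, had a log2 fold change of 0.79 (adjusted p = 0.266). KaiR1D, listed as CG3822 and the gene before TotA, was at 0.28 (adjusted p = 0.69). Ktl, listed as CG10830 and lying between TotZ and TotX, was at 0.05 (adjusted p = 0.905).

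**Figure D4:**
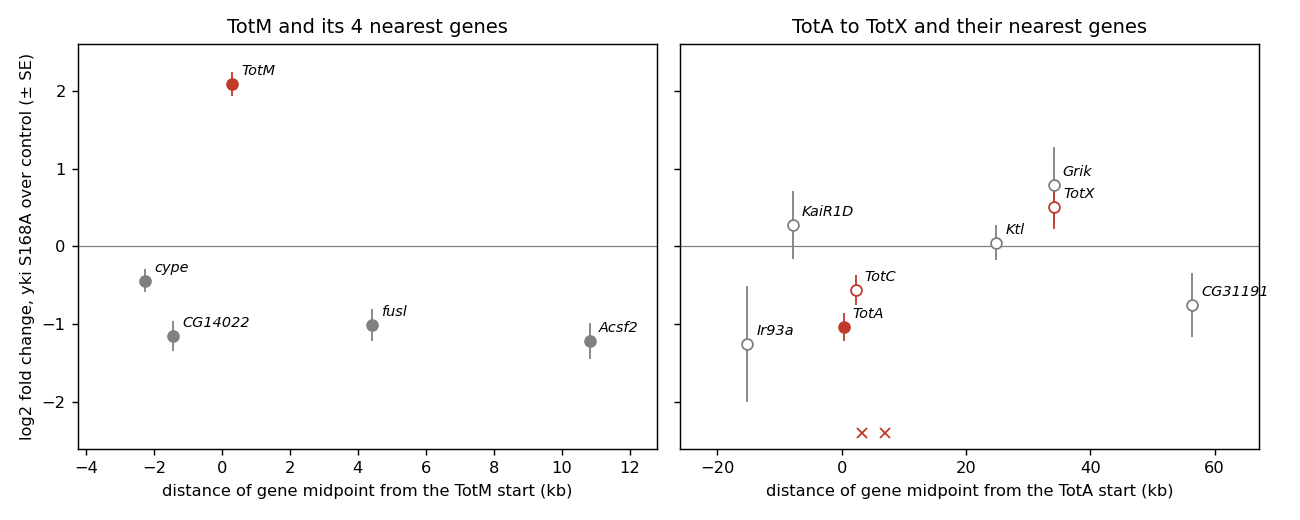
Log2 fold change (yki S168A over control, ± SE) of Turandot genes (red) and neighboring genes (grey) by distance in kb; filled points were called, open points were not, and crosses mark TotB and TotZ, which were not tested. TotM at 2.09 stands above 4 neighbors that were all lower, as were 12.5% of all tested genes. TotA at −1.04 lies among neighbors that were not called.

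By distance of centred log2 CPM over the 4 libraries, the 3 genes closest to TotM among 6682 with a mean of at least 10 CPM were lft (distance 0.0928), Tsf2 (0.139) and Zw (0.143). In the fly, lft encodes a binding partner of the cadherins Fat and Dachsous, Tsf2 a transferrin of septate junctions, and Zw glucose-6-phosphate dehydrogenase. Their log2 fold changes were 2.03, 2.16 and 2.07. The 4 libraries fall into 2 groups, so any gene with a like difference between the groups lies close by this measure.

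The pathways known to induce Turandot genes were examined next, from lists written for this family with earlier results of these data known. Of 15 JAK/STAT genes tested, 8 were higher and 0 lower, against 15.1% and 12.5% of all tested genes. Their median log2 fold change was 0.66, against 0.01 over all tested genes. The ligand genes were close to silent in control heads. The gene os, which encodes the ligand Unpaired 1, had 44 and 131 counts in the yki S168A libraries and 1 and 7 in the control libraries (adjusted p = 0.00343). The related ligand gene upd2 had 31 and 27 counts in yki S168A and 0 and 2 in control libraries (adjusted p = 0.0103), and was not called without control replicate 1 (0.163) or control replicate 2 (0.0777). The third ligand gene, upd3, had 99 and 28 counts against 0 in both control libraries (adjusted p = 0.00688), which set against 3 counts in each control library means at least 21.4-fold higher. Leaving out yki S168A replicate 1 made this at least 8.94-fold higher, and leaving out yki S168A replicate 2 made it at least 33.8-fold higher. The log2 fold change of os lay between 3.45 without yki S168A replicate 2 and 6.31 without control replicate 2, and was 3.54 without control replicate 1.

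Among receptors and feedback genes, dome, the Unpaired receptor gene, averaged 89.8 ± 10.3 CPM in yki S168A and 35.3 ± 2.26 CPM in control heads (SD, n = 2 each, adjusted p = 0.000105). Transcripts of et, which encodes a receptor-like inhibitor of the pathway, rose 3.24-fold (adjusted p = 3.34e-05). Socs36E, a feedback inhibitor and STAT target, averaged 84.2 ± 6.59 CPM in yki S168A and 40.7 ± 0.561 CPM in control heads (adjusted p = 0.00045). The kinase gene hop and the transcription factor gene Stat92E were not called, at log2 fold changes of 0.20 (adjusted p = 0.476) and −0.16 (adjusted p = 0.455). Among genes with a mean of at least 10 CPM, 5 JAK/STAT genes were called higher. The genes os, upd2 and upd3 lay below that level and were not tested there. Fewer JAK/STAT genes were called higher without control replicate 1 or without control replicate 2, but so were fewer of all tested genes.

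Of 15 Imd pathway genes tested, 4 were higher and 0 lower, against 15.1% and 12.5% of all tested genes. The median log2 fold change was 0.35, and nothing is read from this small count. PGRP-LB, an amidase that degrades peptidoglycan and dampens the pathway, averaged 262 ± 60.6 CPM in yki S168A and 21.7 ± 4.58 CPM in control heads (SD, n = 2 each), 12.1-fold higher (adjusted p = 5.17e-07). Rel, which encodes Relish, averaged 102 ± 16.3 CPM in yki S168A and 34.9 ± 0.688 CPM in control heads (adjusted p = 4.38e-05). The receptor genes PGRP-LC and PGRP-LE rose 2.35-fold (adjusted p = 0.000786) and 1.79-fold (adjusted p = 0.00892), the PGRP-LE call being lost without control replicate 2 (0.124). The adaptor gene imd was not called (log2 fold change 0.27, adjusted p = 0.31).

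In the cascade from Mekk1 to p38, 2 of 9 genes tested were higher and 0 lower, with a median log2 fold change of 0.13. This is close to the 15.1% of all tested genes that were higher, and nothing is read from the count. The kinase genes p38a (2.31-fold, adjusted p = 0.0162) and Mekk1 (1.52-fold, adjusted p = 0.0285) rose. Each of these calls depended on single libraries: p38a was not called without control replicate 2 (0.15), and Mekk1 without control replicate 1 (0.146), control replicate 2 (0.189) or yki S168A replicate 1 (0.0684). The number called higher was 1 without control replicate 1 or yki S168A replicate 1, and 0 without control replicate 2. It was 1 with DESeq2 and among genes with a mean of at least 10 CPM, and 0 against a change of 1.5-fold. With upper-quartile scaling 1 was higher and 1 lower. The kinase gene p38b was not called (log2 fold change 0.38, adjusted p = 0.227), nor was the factor gene Atf-2 (0.19, adjusted p = 0.743). The gene p38c, with 4 and 2 counts in yki S168A and 10 and 5 in control libraries, was too low to test.

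A list of 9 other infection- and stress-induced genes linked to JAK/STAT had 4 members higher and 1 lower (median log2 fold change 0.75). The shares over all tested genes were 15.1% higher and 12.5% lower. Mmp1, which encodes a matrix metalloprotease, rose 3.09-fold (adjusted p = 3.86e-05), and Tep4, a thioester-containing protein gene of the humoral response, 1.77-fold (adjusted p = 0.00121). The virus-induced gene vir-1 rose 1.74-fold (adjusted p = 0.00866), not so without control replicate 1 (0.146) or control replicate 2 (0.162). Vago, a secreted antiviral factor gene, fell 2.03-fold (adjusted p = 0.00136). The count called higher was 2 without control replicate 1 and 1 against a change of 1.5-fold, and 2 were lower without yki S168A replicate 1.

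Heat shock and other stress-inducible genes went the opposite way to TotM. Of 17 tested, 15 were lower and 0 higher (median log2 fold change −1.75), against 12.5% and 15.1% of all tested genes. Hsp26 averaged 54.1 ± 1.11 CPM in yki S168A and 568 ± 100.4 CPM in control heads (SD, n = 2 each, adjusted p = 2.05e-07). Hsp68 fell 7.27-fold (adjusted p = 4.86e-07), and Hsp27 8.36-fold (adjusted p = 5.26e-07). Hsp70Bc averaged 12.5 ± 1.01 CPM in yki S168A and 99.7 ± 19.2 CPM in control heads (adjusted p = 1.11e-06). The 6 Hsp70 copies on the list are near-identical genes with 5 distinct sets of counts, so they are not separate measurements.

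**Figure D5:**
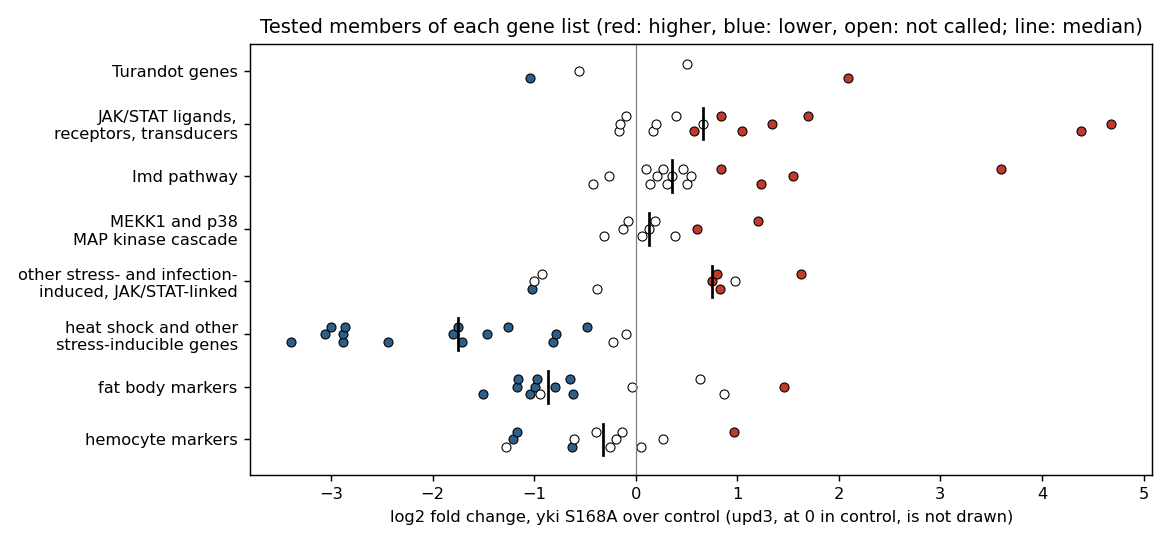
Log2 fold change (yki S168A over control) of the tested members of 8 gene lists. Red points were called higher, blue lower, open points not called, and lines mark list medians (none is drawn for the Turandot genes). The JAK/STAT gene upd3, called higher, is not drawn but is included in the median and in the counts. The Turandot genes lie on both sides of 0 and JAK/STAT genes mostly above it (8 of 15 higher, 0 lower). Heat shock and other stress-inducible genes lie mostly below it (15 of 17 lower, 0 higher).

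Among tissues known to produce Turandot peptides, the summed level of fat body markers differed between the groups, while that of hemocyte markers overlapped. The called shares of all tested genes were 15.1% higher and 12.5% lower. Of 14 fat body markers tested, 9 were lower and 1 higher. The median log2 fold change was −0.87, and their summed level was 3789 and 2566 CPM in the yki S168A libraries and 6664 and 6256 CPM in the control libraries. None of the 14 was at 0 in all libraries. The lipid transfer protein gene apoltp fell 2.05-fold (adjusted p = 0.00115), and Ilp6, the fat body insulin-like peptide gene, averaged 49.6 ± 1.90 CPM in yki S168A and 98.7 ± 3.21 CPM in control heads (SD, n = 2 each, adjusted p = 0.000482). Fbp1 was called higher (2.76-fold, adjusted p = 0.0483), a call that depended on the method and on single libraries. It was not called with RLE or upper-quartile scaling, without the filter or among genes with a mean of at least 10 CPM. Nor was it called against a change of 1.5-fold or with DESeq2, limma-voom or the legacy fit. Its fold was 1.84 without control replicate 1, 1.37 without yki S168A replicate 2 and 5.25 without control replicate 2. The number of fat body markers called lower was 5 without control replicate 1 and 4 against a change of 1.5-fold, and the number called higher was 3 without yki S168A replicate 1. Of 12 hemocyte markers 3 were lower and 1 higher (median log2 fold change −0.32), with summed levels of 699 and 823 CPM in yki S168A and 820 and 766 CPM in control libraries, and without yki S168A replicate 1 the number lower was 6. Of 16 photoreceptor markers 14 were lower and 0 higher, summing to 4310 and 4655 CPM in yki S168A and 13758 and 13594 CPM in control libraries. Neuron markers fell too, with 7 of 10 lower and 0 higher (median log2 fold change −0.66), though 0 were lower against a change of 1.5-fold. Of 8 glia and 12 muscle markers 1 each was higher and 0 lower, and of 7 antenna markers 1 was higher and 2 lower. TotA thus fell where fat body, photoreceptor and neuron markers fell, and TotM rose. The part of tissue make-up in either difference was not tested, and in whole heads fewer cells of a type and less RNA per cell cannot be told apart.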

How the data were processed

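RNA from pooled adult heads was sequenced from libraries made with a SENSE mRNA kit, per the labels' protocols. The authors deposited whole-number read counts per gene symbol, 1 table per library. Per the submitters' processing notes the genome was dm6; aligner, counting tool and strand setting: not given in the sources used here. Lines sharing a symbol (37 lines, 17 symbols) were summed to 16489 symbols, of which 16271 (98.7%) were matched to the Ensembl release 115 annotation (dm6 coordinates).

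Counts were fitted in edgeR 4.0.16 (R 4.3.3): filterByExpr with a minimum count of 10, TMM, glmQLFit with its newer method (legacy off) and glmQLFTest, with 10896 genes tested, 5593 untested and 11.2 degrees of freedom. The fit was also run on counts simulated from the mean levels and dispersions of these libraries, which does not test its assumptions on the real counts. SEs were obtained by dividing the size of each log2 fold change by the root of its F. SDs are over 2 libraries. Named genes were all 8 members; up to 4 called members of each list plus the strongest call in the opposite direction; a set of signaling genes; the 2 nearest genes with counts on each side of each Turandot place; and the 3 genes most like TotM. The members and lists were chosen with earlier results of these data known. Alternatives were RLE and upper-quartile scaling, the 20 most abundant genes left out, no filter, a mean of at least 10 CPM, limma-voom (limma 3.58.1), DESeq2 1.42.0, a test against 1.5-fold by glmTreat, the replicate number as a block, leaving out each library and, added after seeing the data, the legacy quasi-likelihood fit.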

Additional observations from a re-analysis of the deposited data

How the results depend on the processing

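TotM and TotA kept their direction and call under all 14 alternatives, and none of the 4 tested members changed sign under any. The number of members called lower was 1 with all libraries; it was 2, TotC being the second, with RLE scaling, with upper-quartile scaling, without the 20 most abundant genes, among genes with a mean of at least 10 CPM, with DESeq2 and with a replicate block, and ran from 1 to 2 with each library left out. The number called higher ran from 1 to 2 with each library left out, the second being TotZ without yki S168A replicate 1. Upper-quartile scaling moved the median log2 fold change of all tested genes from 0.01 to −0.15, with 1276 genes higher and 1924 lower, against 1647 and 1359 with TMM. Of all tested genes 3006 were called, 1180 with glmTreat against 1.5-fold and 1634 to 3123 with each library left out, the lowest without control replicate 1. The replicate differences of the groups were nearly uncorrelated across genes (r = 0.0171), which cannot tell whether the samples were handled in pairs. The replicate block gave 3626 calls, against 3006 without it. Of 420 counts of called list members under the alternatives, 370 stayed within 1.5 times of the count with all libraries and 50 did not. Counts that were 0 in both fits are among the 370. The midgut and male reproductive tract lists had 0 genes tested with all libraries, so the share is no measure of stability. TotB, TotE, TotF and TotZ had 0 to 21 counts in each library, and TotE, TotF and TotZ differed between the yki S168A libraries, so no change is stated for them.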
